A study of Mus musculus with 18 samples.

Results

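The genes described here are 10 members of the TNF receptor superfamily system of the mouse, taken from the deposited count table by symbol. They comprise the ligand genes Tnf and Tnfsf10, the death receptor genes Fas, Tnfrsf1a and Tnfrsf10b, the receptor genes without a death domain Tnfrsf1b, Cd40, Ltbr and Tnfrsf12a, and the inhibitor gene Cflar, out of 24421 genes listed. RNA came from 4T1, a transplantable mammary carcinoma line of the mouse (strain BALB/cfC3H, genotype wild type in the labels), and from 4T1R1 and 4T1R2, cell populations that survived repeated exposure to 17-DMAG and were derived separately from 4T1. 17-DMAG, a geldanamycin derivative, inhibits the chaperone HSP90. Libraries were made from all 3 populations without treatment and after 1.5 µM 17-DMAG, 3 for each of the 6 groups. The sample records give 48 h for the exposure before RNA extraction and 3 rounds of 48 h at the same dose for the selection, whereas the series description gives 2 h for the exposure and several cycles of 24 h at 1 µg/ml for the selection. The duration of exposure behind every 17-DMAG value below is therefore 2 h or 48 h, and the files do not settle which. Both resistant populations are surviving pools, and nothing in the labels calls them clones.

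Ligands of the TNF family act as trimers and cluster their receptors on the cell surface. Receptors with a cytoplasmic death domain (Fas, TNF receptor 1 encoded by Tnfrsf1a, and the TRAIL receptor encoded by Tnfrsf10b) can recruit FADD and caspase-8, directly or through TRADD and RIPK1, and so trigger apoptosis. Receptors without a death domain engage TRAF adaptors and cIAP ubiquitin ligases. Both kinds of receptor can activate NF-κB, which in turn induces survival genes. c-FLIP, the product of Cflar, resembles caspase-8 without being an active protease and limits its activation at the receptor. RIPK1 and the IκB kinases are known clients of HSP90. In carcinoma cells these receptors are known both as triggers of death by immune cells and as sources of inflammatory signaling.

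Library totals ran from 23354461 to 55094630 counts (median 30747714), and the ribosomal precursor Rn45s took 9.54% to 15.6% of them. Among counts from 1 to 12, 65.6% to 70.8% were even numbers in each library, so a count of 2 may stand for a single fragment. In 4T1 treated with 17-DMAG, the counts of replicates 1 and 2 agreed far more closely than those of any other within-group pair (chi-square per gene of 1.10, against 2.04 to 2.22 in the 17 others). Both were therefore averaged and counted as 1 sample, which leaves n = 2 in that group. In each list of 17-DMAG-treated 4T1 values the averaged pair comes first and replicate 3 second. All 5 epithelial markers were abundant in every library (Epcam 719.97 to 1547 normalized counts, Krt8 14913 to 23850 normalized counts), and their sum was 75143 to 76101 in untreated 4T1, 50221 to 52743 in untreated 4T1R1 and 58263 to 59467 in untreated 4T1R2, lower in both resistant populations without overlap. Of the 6 leukocyte markers, Cd3e reached at most 2.34 and Ptprc at most 18.2 normalized counts, while Cd68 was at 118 to 207. The summed list, most of it Cd68, was 135 to 195 in untreated 4T1, 209.6 to 223 in untreated 4T1R1 and 191 to 215 in untreated 4T1R2. The 4 fibroblast markers summed to 675 to 751 in untreated 4T1, 386 to 405 after 17-DMAG, 830.2 to 890 in untreated 4T1R1 and 916 to 1034 in untreated 4T1R2, nearly all of it Pdgfra, while Dcn stayed at or under 1.92 normalized counts. What part such marker shifts have in the receptor genes was not tested. The identifiers of the 4T1R1 libraries form a number run apart from those of 4T1 and 4T1R2. A difference of 4T1R1 from 4T1 or from 4T1R2 and what such a run may add therefore cannot be told apart.

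Per kilobase of exon, the order of the members in untreated 4T1 began with Tnfrsf12a, the receptor for TWEAK, at 3266 ± 102 normalized counts per kb (SD, n = 3). Ltbr followed at 754 ± 41.9, Tnfrsf1a at 510.3 ± 18.9, Tnfrsf10b at 385 ± 4.27, Tnfrsf1b at 296 ± 10.8 and Cflar at 273 ± 3.15 normalized counts per kb. Fas was far below these at 21.2 ± 5.48, Cd40 lower still at 7.14 ± 3.11, Tnfsf10 near the detection limit at 0.39 ± 0.018, and Tnf had no count. No neighbors in this order overlapped in untreated 4T1. On this scale Fas stood beside Cflar in the resistant populations: 241 ± 29.99 against 219.7 ± 2.00 normalized counts per kb in untreated 4T1R1 and 171 ± 16.8 against 173 ± 4.30 in untreated 4T1R2, and in both cases the ranges of the 3 libraries overlapped. The length is that of all annotated exons merged, 2.062 kb over 5 transcripts for Fas and 12.669 kb over 13 for Cflar. Without division by length, Fas was well below Cflar, at 497 against 2784 normalized counts in untreated 4T1R1 and 353 against 2190 in untreated 4T1R2. Which transcripts the cells held was not tested. Tnfrsf1b was above Tnfrsf10b per kilobase in untreated 4T1R1 (546 against 353) and in untreated 4T1R2 (440.4 against 412), the reverse of their order in 4T1.

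**Figure D1:**
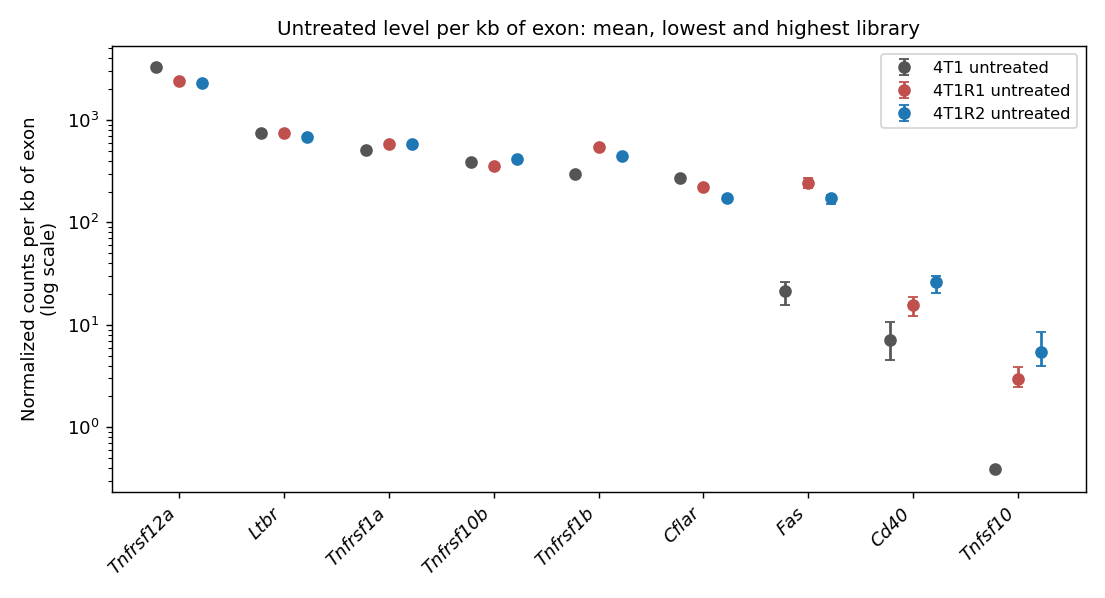
Level of each member in untreated 4T1, 4T1R1 and 4T1R2 in normalized counts per kilobase of exon, on a log scale, with the mean as a point and bars from the lowest to the highest of 3 libraries. Tnf is not drawn because it had no count in 4T1. Fas moved from 21.2 per kb in 4T1 to 241 and 171 per kb in the resistant populations, next to Cflar on this scale. The length is that of all annotated exons of a gene merged, which is much longer for Cflar than for Fas.

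The comparison of untreated populations asks how cells that survived selection differ from those they were selected from. Of the 9 members with enough counts to test, 5 were higher and 3 lower in 4T1R1 than in 4T1, where 25.2% of all 13507 genes tested were higher and 27.5% lower at an adjusted P-value under 0.05. In 4T1R2 against 4T1, 6 members were higher and 3 lower, where 25.6% of all genes tested were higher and 26.9% lower. The median log2FC over the 9 tested members was 0.19 in each comparison, against 0.01 over all genes in each. Fas, Tnfrsf1b, Cd40, Tnfsf10 and Tnfrsf1a were higher in both resistant populations, Tnfrsf12a and Cflar were lower in both, and Tnfrsf10b was lower in 4T1R1 but higher in 4T1R2. Tnfsf10 passed the filter on low counts only through the resistant groups, so its place among the higher members follows from the filter. Both comparisons share the untreated 4T1 libraries.

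**Figure D2:**
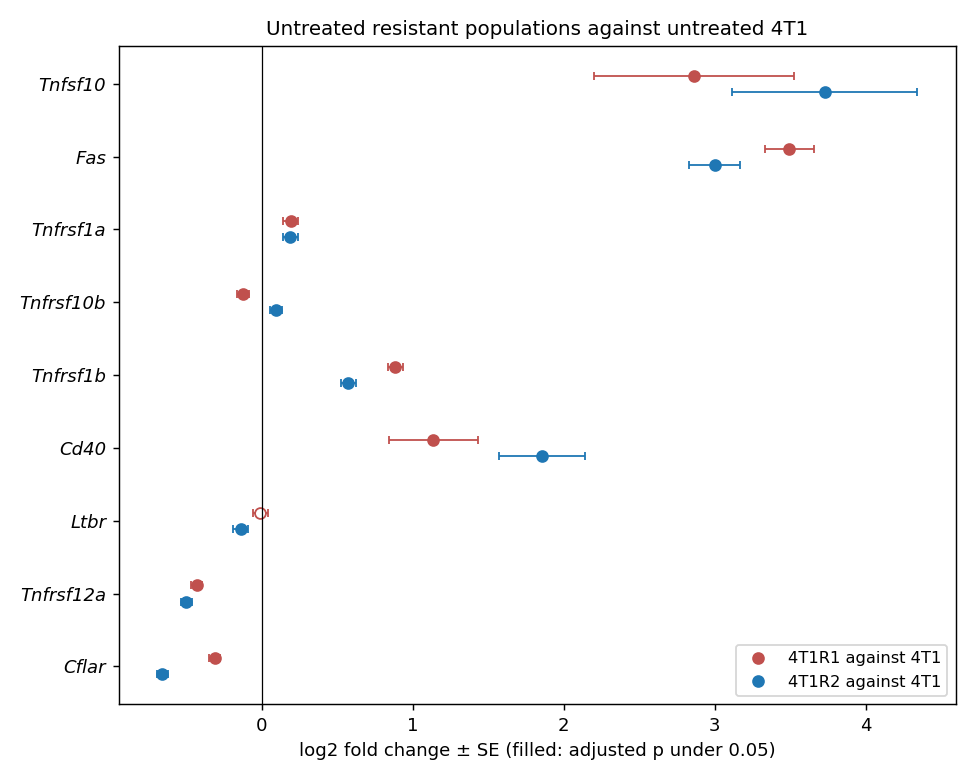
log2 fold change of the 9 tested members in untreated 4T1R1 and 4T1R2 against untreated 4T1, with bars for the standard error and filled points for an adjusted P-value under 0.05. Tnfsf10 and Fas lie furthest to the right, Cflar and Tnfrsf12a are left of 0 in both populations. The Tnfsf10 points depend on the fit's handling of 2 counts in each 4T1 library and are not bounds.

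Tnf encodes the founding ligand of the family and lies on chromosome 17 (GRCm38 chr17:35199381-35202007, minus strand), between Lta and Ltb. It had 0 counts in every library of 4T1, untreated or treated. Untreated 4T1R1 gave 0, 0 and 2 counts and treated 4T1R1 gave 4, 0 and 0. Untreated 4T1R2 gave 3, 6 and 0 counts and treated 4T1R2 gave 2, 8 and 2. The resistant populations thus held the few reads of Tnf there were, too few to pass the filter on low counts, and no test was made. Its neighbor Ltb had means of 0.712 normalized counts in untreated 4T1, 9.12 in untreated 4T1R1 and 11.2 in untreated 4T1R2, and passed the filter only through the resistant groups.

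Tnfsf10 encodes TRAIL, the ligand of the receptor encoded by Tnfrsf10b, and lies on chromosome 3 (chr3:27317028-27342427, plus strand). Untreated 4T1 held 2, 2 and 2 counts, at or under the floor of 3 counts in every library. Untreated 4T1R1 held 21, 13 and 14 counts and untreated 4T1R2 held 22, 16 and 38. All 6 resistant libraries were above all 3 libraries of 4T1. With 3 counts per library set as the level of 4T1, the mean of untreated 4T1R1 was 5.09-fold that level. The mean of untreated 4T1R2 was 9.35-fold that level. These ratios carry no sampling error of the counts and are not strict bounds. Tnfsf10 passed the filter on low counts only through the resistant groups, so its separation from 4T1 carries no weight as a test. Between 4T1R2 and 4T1R1 the log2FC was 0.87 ± 0.43 (SE, adjusted P-value 0.109). After 17-DMAG, counts were 18, 4 and 10 in 4T1R1 and 34, 42 and 22 in 4T1R2, both overlapping the untreated libraries, with log2FC of -0.51 (adjusted P-value 0.488) and 0.05 (adjusted P-value 0.961). Treated 4T1 held 2, 6 and 6 counts in its 3 libraries before averaging (adjusted P-value 0.352).

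Fas encodes the receptor for Fas ligand and lies on chromosome 19 (chr19:34290666-34327772, plus strand), with the small RNA gene Gm27818 inside it on the same strand. Its normalized counts were 44.5, 32.1 and 54.6 in untreated 4T1, 565, 444 and 482 in untreated 4T1R1, and 367, 378 and 313 in untreated 4T1R2. The lowest resistant library was thus well above the highest 4T1 library. Fas was 11.3-fold higher in 4T1R1 (log2FC 3.49 ± 0.16 SE, adjusted P-value 1.49e-21) and 8.0-fold higher in 4T1R2 (log2FC 3.00 ± 0.17, adjusted P-value 9.50e-19), and 4T1R2 was below 4T1R1 (log2FC -0.49 ± 0.12, adjusted P-value 0.000873). In RNA from whole cultures, fewer cells with a transcript and less of it per cell cannot be told apart. Transcripts of Fas ligand itself were nearly absent, with at most 2 counts of Fasl in any library.

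The sequences just before the transcription starts of Fas and Tnfrsf1b are shown because both genes were higher in both resistant populations and fell after 17-DMAG in 4T1 and in 4T1R1. Each covers 250 bases, 5′ to 3′ on the gene's own strand, from RefSeq on GRCm38.p6, at chr19:34290409-34290658 (plus strand) for Fas and chr4:145246871-145247120 (minus strand) for Tnfrsf1b. Capitals mark the letters TTCNNNGAA, the core of the GAS element that STAT factors bind, at -93 to -85 from the start in Fas and at -181 to -173 in Tnfrsf1b.
Fas: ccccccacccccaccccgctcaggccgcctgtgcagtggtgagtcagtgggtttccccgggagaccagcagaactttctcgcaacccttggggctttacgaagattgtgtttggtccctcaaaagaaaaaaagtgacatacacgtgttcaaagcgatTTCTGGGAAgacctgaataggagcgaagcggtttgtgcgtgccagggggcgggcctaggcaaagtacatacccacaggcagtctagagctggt
Tnfrsf1b: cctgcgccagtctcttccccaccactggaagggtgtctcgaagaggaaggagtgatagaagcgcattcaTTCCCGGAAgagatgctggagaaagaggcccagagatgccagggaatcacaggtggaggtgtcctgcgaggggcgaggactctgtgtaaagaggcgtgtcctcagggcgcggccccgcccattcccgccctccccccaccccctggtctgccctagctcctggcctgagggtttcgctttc
Promoter windows of 300 bases, 50 of them after the start, were held for 8 of the 10 members and were searched on both strands (Tnfrsf10b and Cd40 had none). TTCNNNGAA was in 3 of the 8, those of Fas, Tnfrsf1b and Tnfrsf1a, against 8.29% of 32807 promoter windows of mouse genes. The AP-1 letters TGANTCA were in Fas alone (-211 to -205) and in 7.82% of all windows. The heat shock element letters GAANNTTC were in Fas alone (-180 to -173) and in 7.86% of all windows, TTCNNGAA was in none of the 8 and in 8.52% of all, and the κB consensus was in none of the 8 and in 8.46% of all. A match describes letters only, and the κB result says only that the consensus is not in these windows.

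Tnfrsf1a encodes TNF receptor 1, the death domain receptor for TNF, on chromosome 6 (chr6:125349362-125362484, plus strand), 35.5 kb from Ltbr. Normalized counts were 1360.0, 1340.0 and 1267 in untreated 4T1, 1485, 1522 and 1523 in untreated 4T1R1, and 1558, 1494 and 1467 in untreated 4T1R2. The resistant libraries lay above the 4T1 libraries by a small margin and overlapped each other. The log2FC was 0.19 ± 0.050 in 4T1R1 (adjusted P-value 0.00126) and 0.19 ± 0.051 in 4T1R2 (adjusted P-value 0.00158).

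Tnfrsf10b encodes the mouse TRAIL receptor with a death domain, on chromosome 14 (chr14:69767472-69784411, plus strand). It had 2111, 2110.4 and 2070.4 normalized counts in untreated 4T1, 1881, 1938 and 1961 in untreated 4T1R1, and 2224, 2299 and 2208 in untreated 4T1R2. The 3 groups did not overlap, with 4T1R1 lowest and 4T1R2 highest. Its log2FC was -0.12 ± 0.041 in 4T1R1 (adjusted P-value 0.0105), 0.10 ± 0.041 in 4T1R2 (adjusted P-value 0.0429) and 0.22 ± 0.041 between 4T1R2 and 4T1R1 (adjusted P-value 3.02e-05). The first call was lost without replicate 1 of untreated 4T1R1 (-0.10, adjusted P-value 0.0534) and with total counts alone (-0.10, adjusted P-value 0.0578). The second was lost without replicate 1, 2 or 3 of untreated 4T1 (0.10, 0.10 and 0.09, adjusted P-values 0.0632, 0.0650 and 0.118) and without replicate 1 or 2 of untreated 4T1R2 (0.10 and 0.08, adjusted P-values 0.0616 and 0.146), as well as with no filter (0.09, adjusted P-value 0.101).

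Tnfrsf1b encodes TNF receptor 2, which binds TNF and TRAF2 without a death domain, on chromosome 4 (chr4:145213463-145246870, minus strand). Its normalized counts were 1082, 1148 and 1159 in untreated 4T1, 2066, 2127 and 2066 in untreated 4T1R1, and 1646, 1648 and 1751 in untreated 4T1R2. No group overlapped another, and 4T1R1 was highest. The log2FC was 0.88 ± 0.048 in 4T1R1 (1.85-fold, adjusted P-value 4.11e-19) and 0.57 ± 0.050 in 4T1R2 (1.49-fold, adjusted P-value 5.18e-13), with 4T1R2 below 4T1R1 (-0.31 ± 0.047, adjusted P-value 9.06e-07).

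Cd40 encodes the receptor for CD40 ligand, best known from B cells and dendritic cells, on chromosome 2 (chr2:165055627-165072948, plus strand). It had 15.5, 21.4 and 36.1 normalized counts in untreated 4T1, 56.5, 41.7 and 63.1 in untreated 4T1R1, and 102, 70.4 and 93.6 in untreated 4T1R2. The groups rose in this order without overlap, while its ligand gene Cd40lg had no count in any library. The log2FC was 1.14 ± 0.30 in 4T1R1 (2.197-fold, adjusted P-value 0.00125) and 1.86 ± 0.28 in 4T1R2 (3.62-fold, adjusted P-value 5.03e-07). Between 4T1R2 and 4T1R1 it was 0.72 ± 0.25 (adjusted P-value 0.0208), a call that was lost without replicate 2 of untreated 4T1R1 (0.57, adjusted P-value 0.1004) or replicate 1 or 3 of untreated 4T1R2 (0.61 and 0.69, adjusted P-values 0.106 and 0.0594).

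Ltbr encodes the lymphotoxin β receptor, an activator of the alternative NF-κB pathway, on chromosome 6 (chr6:125306571-125313885, minus strand). Normalized counts were 1660.3, 1824 and 1837 in untreated 4T1, 1679.8, 1831 and 1780.1 in untreated 4T1R1, and 1546, 1664 and 1633 in untreated 4T1R2. 4T1R1 lay within the range of 4T1 (log2FC -0.01 ± 0.049, adjusted P-value 0.897), and 4T1R2 was slightly lower with an overlap of 1 library on each side. The log2FC in 4T1R2 was -0.14 ± 0.050 (adjusted P-value 0.0184), a call lost without replicate 2 or 3 of untreated 4T1 (-0.12 and -0.11, adjusted P-values 0.0761 and 0.0996) or replicate 1 of untreated 4T1R2 (-0.11, adjusted P-value 0.117). Between 4T1R2 and 4T1R1 it was -0.13 ± 0.050 (adjusted P-value 0.0360), and that call was lost without replicate 2 or 3 of untreated 4T1R1 (adjusted P-values 0.142 and 0.0850) or replicate 1 or 3 of untreated 4T1R2 (adjusted P-values 0.186 and 0.0505), at log2FC from -0.14 to -0.10.

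Tnfrsf12a encodes Fn14, the TWEAK receptor, on chromosome 17 (chr17:23675445-23677468, minus strand). It had 6089, 6470.3 and 6369 normalized counts in untreated 4T1, 4600.0, 4863 and 4588 in untreated 4T1R1, and 4478, 4614 and 4306 in untreated 4T1R2. Every resistant library was below every 4T1 library, and the resistant populations overlapped each other. The log2FC was -0.43 ± 0.036 in 4T1R1 (adjusted P-value 2.98e-13) and -0.50 ± 0.037 in 4T1R2 (adjusted P-value 4.96e-15), and -0.07 ± 0.037 between 4T1R2 and 4T1R1 (adjusted P-value 0.146). Its ligand gene Tnfsf12 reached at most 8 counts in any library and was not tested.

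Cflar lies on chromosome 1 (chr1:58711508-58758884, plus strand), 36.5 kb from Casp8, whose product it restrains. Normalized counts were 3478, 3408 and 3476 in untreated 4T1, 2765, 2813 and 2774 in untreated 4T1R1, and 2176, 2144 and 2250.1 in untreated 4T1R2. The 3 populations were separate, with 4T1 highest and 4T1R2 lowest, and libraries of a group lay close together. The log2FC was -0.31 ± 0.036 in 4T1R1 (adjusted P-value 1.44e-09), -0.66 ± 0.037 in 4T1R2 (adjusted P-value 1.43e-18) and -0.35 ± 0.038 between 4T1R2 and 4T1R1 (adjusted P-value 7.59e-10). A gene-level count does not separate the long and short forms of c-FLIP.

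Between 4T1R2 and 4T1R1, 2 of the 9 tested members were higher and 4 lower, where 19.7% of all genes tested were higher and 19% lower. Cd40 and Tnfrsf10b were the higher ones in 4T1R2, and Fas, Tnfrsf1b, Ltbr and Cflar the lower ones. The separate number run of the 4T1R1 libraries divides the same groups.

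**Figure D3:**
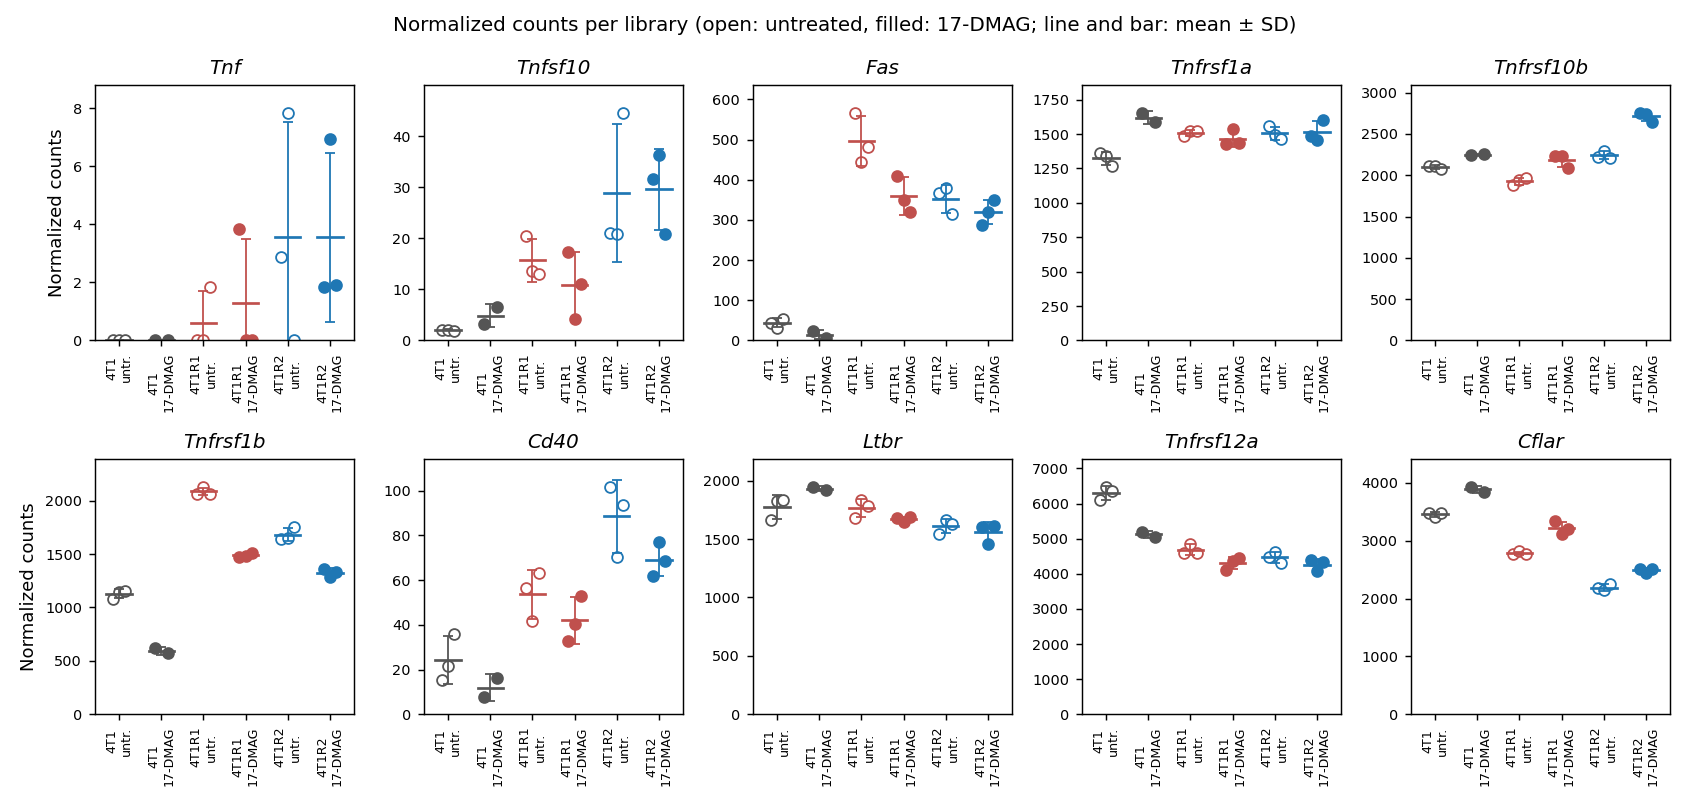
Normalized counts of the 10 members in each library by group, each panel with its own linear axis from 0, open circles for untreated and filled circles for 17-DMAG, with a line for the mean and bars for the SD. Fas at 32.1 to 54.6 in untreated 4T1 sits near the axis beside 313 to 565 in the untreated resistant libraries. Tnfrsf1b drops after 17-DMAG in each of the 3 populations, and Cflar climbs in each.

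The comparison of 17-DMAG with no treatment asks how each population responded to the drug. In 4T1, 2 of 9 tested members rose (Tnfrsf1a and Cflar) and 4 fell (Fas, Tnfrsf1b, Cd40 and Tnfrsf12a), where 18.4% of all genes tested rose and 17.9% fell. In 4T1R1, 2 rose (Tnfrsf10b and Cflar) and 3 fell (Fas, Tnfrsf1b and Tnfrsf12a), where 13.9% of all genes rose and 14.3% fell. In 4T1R2, 2 rose (Tnfrsf10b and Cflar) and 1 fell (Tnfrsf1b), where 6.18% of all genes rose and 4.35% fell. The median log2FC over the 9 tested members after the drug was 0.10 for 4T1, -0.12 for 4T1R1 and -0.05 for 4T1R2, against 0.00, -0.01 and 0.00 over all genes.

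**Figure D4:**
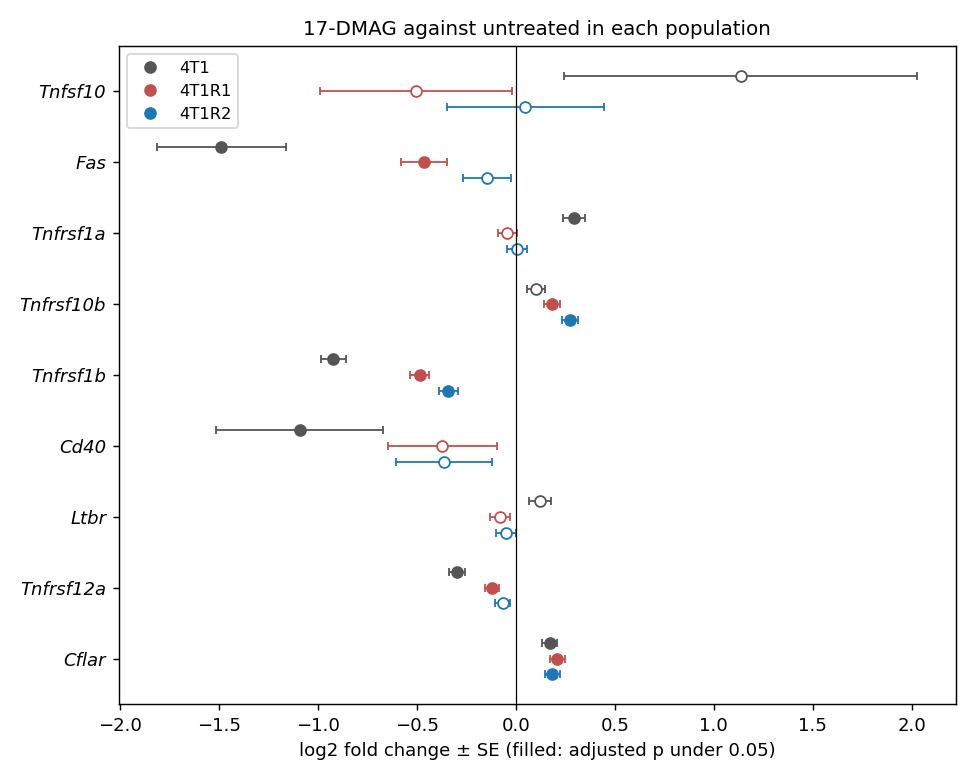
log2 fold change of the 9 tested members after 17-DMAG in 4T1, 4T1R1 and 4T1R2, with bars for the standard error and filled points for an adjusted P-value under 0.05. For Fas, Tnfrsf1b and Tnfrsf12a the 4T1 point lies furthest left and the 4T1R2 point nearest to 0. The Cflar points of the 3 populations lie together at 0.17 to 0.21.

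Among the death receptors, Fas in treated 4T1 was at 22.5 and 6.48 normalized counts, below all 3 untreated libraries (log2FC -1.49 ± 0.33, adjusted P-value 0.00028). In treated 4T1R1 it was at 410.3, 349 and 319, again below the untreated libraries (-0.47 ± 0.12, adjusted P-value 0.00238). In treated 4T1R2 it was at 288, 320.2 and 349, overlapping the untreated libraries (-0.15 ± 0.12, adjusted P-value 0.523). All 6 treated resistant libraries were above the highest untreated 4T1 library. Both treated 4T1 values rest on few reads, 28 and 6 counts, and their SD of 11.3 was nearly as large as their mean of 14.5.

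Tnfrsf1a rose in treated 4T1 to 1650.4 and 1584 normalized counts, above all untreated 4T1 libraries (log2FC 0.29 ± 0.055, adjusted P-value 3.40e-05). In treated 4T1R1 it was at 1427, 1535 and 1435 (-0.04 ± 0.050, adjusted P-value 0.578) and in treated 4T1R2 at 1488, 1455 and 1604 (0.01 ± 0.050, adjusted P-value 0.955). Both resistant populations overlapped their untreated libraries. Tnfrsf10b was at 2243 and 2256 in treated 4T1 (0.10 ± 0.045, adjusted P-value 0.0737), above the untreated range but short of the threshold. It rose to 2232, 2232 and 2091 in 4T1R1 (0.18 ± 0.041, adjusted P-value 0.000598) and to 2750.1, 2739 and 2648 in 4T1R2 (0.27 ± 0.040, adjusted P-value 3.36e-06), with no overlap in either.

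Tnfrsf1b fell in all 3 populations. Treated libraries were at 619 and 569 normalized counts in 4T1, 1474, 1481 and 1513 in 4T1R1, and 1364, 1286 and 1330.4 in 4T1R2, without overlap with the untreated libraries in any. The log2FC was -0.92 ± 0.061 (adjusted P-value 4.65e-16), -0.49 ± 0.047 (adjusted P-value 1.19e-10) and -0.34 ± 0.048 (adjusted P-value 2.37e-06) in that order. Each treated resistant library was still above every untreated 4T1 library.

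Cd40 was at 7.64 and 16.2 normalized counts in treated 4T1, with the higher value inside the untreated range (log2FC -1.09 ± 0.42, adjusted P-value 0.0395). That call was lost without replicate 3 of untreated 4T1, its highest library (-0.68, adjusted P-value 0.282), and in a fit of only the groups compared (-1.09, adjusted P-value 0.0789). Treated 4T1R1 was at 32.6, 40.2 and 53.1 (-0.37 ± 0.27, adjusted P-value 0.345) and treated 4T1R2 at 62.1, 77.03 and 68.5 (-0.36 ± 0.24, adjusted P-value 0.399), both overlapping their untreated libraries.

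Ltbr did not pass the threshold in any population. It was at 1945 and 1917 normalized counts in treated 4T1 (log2FC 0.12 ± 0.054, adjusted P-value 0.0728), at 1676, 1645 and 1685 in treated 4T1R1 (-0.08 ± 0.049, adjusted P-value 0.245) and at 1601, 1457 and 1611 in treated 4T1R2 (-0.05 ± 0.050, adjusted P-value 0.591). With replicates 1 and 2 of treated 4T1 kept apart, the 4T1 value was called (0.12, adjusted P-value 0.0337), as was that of Tnfrsf10b (0.10, adjusted P-value 0.0457).

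Tnfrsf12a fell in treated 4T1 to 5199.9 and 5046 normalized counts (log2FC -0.30 ± 0.041, adjusted P-value 8.77e-08). In treated 4T1R1 it was at 4109.9, 4369.5 and 4442, below the untreated libraries (-0.12 ± 0.037, adjusted P-value 0.0116), and in treated 4T1R2 at 4391, 4077 and 4323, overlapping them (-0.07 ± 0.037, adjusted P-value 0.286). The 4T1R1 call was lost without replicate 2 of untreated 4T1R1 (-0.09, adjusted P-value 0.0756), without replicate 1 of treated 4T1R1 (-0.09, adjusted P-value 0.119) and when libraries were scaled by total counts alone (-0.09, adjusted P-value 0.0773), a scaling under which the 4T1R2 value was called (-0.11, adjusted P-value 0.0403).

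Cflar rose in all 3 populations. Treated libraries were at 3926 and 3845 normalized counts in 4T1, 3336, 3114 and 3206 in 4T1R1, and 2513, 2442 and 2513 in 4T1R2, each above the untreated libraries of its population. The log2FC was 0.17 ± 0.039 (adjusted P-value 0.000576), 0.21 ± 0.036 (adjusted P-value 2.10e-05) and 0.18 ± 0.038 (adjusted P-value 0.000686) in that order. Scaled by total counts alone, the 4T1 value was 0.05 (adjusted P-value 0.334). The treated libraries of 4T1R1 and 4T1R2 remained below those of untreated 4T1.

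The difference between responses was tested directly, as the response of a resistant population minus that of 4T1 on the log2 scale. For 4T1R1, 3 of 9 tested members had a higher and 2 a lower response than 4T1, where 9.16% of all genes tested were higher and 9.08% lower. For 4T1R2, 4 were higher and 1 lower, where 9.62% of all genes tested were higher and 8.16% lower. The median difference over the 9 tested members was 0.08 for 4T1R1 and 0.17 for 4T1R2, against 0.00 over all genes in each. In the main fit, the falls of Fas, Tnfrsf1b and Tnfrsf12a in 4T1 were larger than their responses in either resistant population. The rise of Tnfrsf1a in 4T1 was likewise larger than its response in either. The Fas differences, and that of Tnfrsf12a for 4T1R1, depended on single libraries, as given below. Both sets of differences share the 4T1 libraries.

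For Tnfrsf1b the difference was 0.44 ± 0.077 (adjusted P-value 4.97e-05) for 4T1R1 and 0.58 ± 0.078 (adjusted P-value 2.48e-07) for 4T1R2. For Tnfrsf1a it was -0.34 ± 0.074 (adjusted P-value 0.000891) and -0.29 ± 0.074 (adjusted P-value 0.00455), and for Tnfrsf12a 0.18 ± 0.055 (adjusted P-value 0.0174) and 0.23 ± 0.055 (adjusted P-value 0.00175). The first Tnfrsf1a value was -0.19 with an adjusted P-value of 0.0547 under scaling by total counts alone. The Tnfrsf12a call for 4T1R1 was lost without replicate 3 of treated 4T1R1 (0.16, adjusted P-value 0.0594). Without replicate 3 of treated 4T1, which left 1 sample in that group, the value was 0.16.

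For Fas the difference was 1.02 ± 0.35 (adjusted P-value 0.0361) for 4T1R1 and 1.34 ± 0.35 (adjusted P-value 0.0049) for 4T1R2. Both lean on the treated 4T1 library with 6 counts, replicate 3. Without it they were 0.50 and 0.82, in fits that left only the averaged pair, 1 sample, in treated 4T1. The 4T1R1 call was lost without replicate 1 or 3 of untreated 4T1 (1.02 and 0.83, adjusted P-values 0.0605 and 0.144), replicate 2 of treated 4T1 (0.91, adjusted P-value 0.0885), replicate 2 of untreated 4T1R1 (0.95, adjusted P-value 0.0510) or replicate 1 of treated 4T1R1 (0.92, adjusted P-value 0.0762). With all 18 libraries kept apart it was 0.81 (adjusted P-value 0.0547).

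Tnfrsf10b differed for 4T1R2 (0.17 ± 0.060, adjusted P-value 0.0377) and not by this test for 4T1R1 (0.08 ± 0.060, adjusted P-value 0.403). The 4T1R2 call was lost without replicate 1 or 2 of untreated 4T1, replicate 1 or 3 of untreated 4T1R2, or replicate 1 or 2 of treated 4T1R2. Those fits gave 0.16 to 0.17, with adjusted P-values from 0.0625 to 0.0788. The call was also lost with no filter (0.18, adjusted P-value 0.0676). Without replicate 3 of treated 4T1, which left 1 sample in that group, the value was 0.19. Ltbr differed for 4T1R1 (-0.20 ± 0.073, adjusted P-value 0.0477) and not by this test for 4T1R2 (-0.17 ± 0.074, adjusted P-value 0.1002). Its 4T1R1 call was lost without replicate 1 of untreated 4T1 (-0.16, adjusted P-value 0.163). Leaving out replicate 2 of treated 4T1, replicate 2 or 3 of untreated 4T1R1, or replicate 1, 2 or 3 of treated 4T1R1 lost it too. So did leaving out replicate 2 or 3 of untreated 4T1R2 or replicate 1 of treated 4T1R2. These further fits gave -0.21 to -0.17, with adjusted P-values from 0.0506 to 0.108. Without replicate 3 of treated 4T1 the value was -0.21. The call was also lost with RLE scaling (-0.20, adjusted P-value 0.0547), at least 10 counts in every library (-0.19, adjusted P-value 0.0576) and total counts alone (-0.05, adjusted P-value 0.658). Cd40 and Cflar gave differences of 0.72 and 0.04 for 4T1R1 and 0.73 and 0.01 for 4T1R2, with adjusted P-values from 0.347 to 0.911, and Tnfsf10, at the floor in untreated 4T1, was not called in either.

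The rest of the pathway was followed through 4 lists. Of all genes tested, 25.2% were higher and 27.5% lower in untreated 4T1R1 than in untreated 4T1. In untreated 4T1R2, 25.6% were higher and 26.9% lower than in untreated 4T1. Of 21 other TNF receptor superfamily genes, 13 were tested, with 4 higher and 4 lower in 4T1R1 than in 4T1, and 3 higher and 3 lower in 4T1R2. The higher ones include Tnfrsf11a, with a mean of 4.13 normalized counts in untreated 4T1 and 1.08 in treated 4T1. It passed the filter on low counts only through the resistant groups, so its place there follows from the filter. Tnfrsf9, which encodes the costimulatory receptor 4-1BB, went from 98.0 ± 22.1 normalized counts in untreated 4T1 to 495 ± 36.2 in 4T1R1 (log2FC 2.34, adjusted P-value 7.99e-19) and 328 ± 29.3 in 4T1R2 (1.74, adjusted P-value 3.30e-14). Tnfrsf22 and Tnfrsf23, named after their values were seen, encode decoy receptors for mouse TRAIL and were lower in both resistant populations. Tnfrsf23 averaged 2420.4 normalized counts in untreated 4T1, 1246 in 4T1R1 (log2FC -0.96 ± 0.046, adjusted P-value 5.86e-21) and 1186 in 4T1R2 (-1.03 ± 0.047, adjusted P-value 1.04e-21). Tnfrsf22 averaged 1856, 1172 and 1169 in the same order (-0.66 in 4T1R1, adjusted P-value 3.49e-14, and -0.67 in 4T1R2, adjusted P-value 4.44e-14). These genes are close paralogs, so their split of shared reads is uncertain. After 17-DMAG, 2 genes of the list rose and 4 fell in 4T1, 4 rose and 1 fell in 4T1R1, and 3 rose in 4T1R2. Relt had the largest fall in 4T1 among those of 100 or more normalized counts, from 317 ± 39.1 to 193 ± 1.18 (-0.72, adjusted P-value 2.96e-05). Tnfrsf19 rose in all 3 populations, from 597 to 867 normalized counts in 4T1 (0.54, adjusted P-value 6.93e-08), from 695 to 856 in 4T1R1 (0.30, adjusted P-value 0.000357) and from 826 to 964 in 4T1R2 (0.22, adjusted P-value 0.0146).

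Of 16 other ligand genes, only 6 had enough counts to test. In 4T1R1, 3 were higher and the other 3 missed the threshold, and in 4T1R2, 4 were higher and the other 2 missed it. Of the 6, Ltb, Tnfsf13 and Tnfsf13b were near the floor in 4T1 and passed the filter only through the resistant groups, so these counts carry no weight as a result about the ligands. Tnfsf9, the ligand of 4-1BB, was at 312 ± 6.11 normalized counts in untreated 4T1 and 386 ± 49.7 in untreated 4T1R2 (log2FC 0.31, adjusted P-value 0.00488). After 17-DMAG, 1 ligand gene fell in 4T1, while the lowest adjusted P-value among the 6 was 0.0628 in 4T1R1 (Tnfsf9) and 0.102 in 4T1R2 (Tnfsf13b). Among the 10 untested, Cd40lg, Cd70 and Tnfsf14 had no count and Lta reached at most 15.

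Of 14 death signaling genes, 13 were tested and Ripk3, the kinase of necroptosis, was not, with at most 2 counts in any library. In 4T1R1, 5 were higher and 4 lower than in 4T1, where 25.2% of all genes tested were higher and 27.5% lower. In 4T1R2, 3 were higher and 7 lower, where 25.6% of all genes tested were higher and 26.9% lower. The list medians were 0.03 and -0.19, against 0.01 over all genes in each. Bid, whose product links caspase-8 to mitochondria, was at 982 ± 36.5 normalized counts in untreated 4T1 and 1529.9 ± 100.2 in untreated 4T1R1 (log2FC 0.64, adjusted P-value 2.76e-12), and at 1605 in untreated 4T1R2 (0.71, adjusted P-value 1.62e-13). It also rose after 17-DMAG in 4T1 (0.39, adjusted P-value 5.02e-06), but gave 0.01 in 4T1R1 (adjusted P-value 0.900) and 0.04 in 4T1R2 (adjusted P-value 0.730). After 17-DMAG, 2 rose and 5 fell in 4T1, 2 rose and 2 fell in 4T1R1, and 1 fell in 4T1R2. Casp6, a caspase gene, fell in 4T1R1 from 496 ± 23.9 to 388 ± 3.29 normalized counts (-0.36, adjusted P-value 0.00104) and in 4T1 from 524 to 415 (-0.33, adjusted P-value 0.00355), and gave -0.02 in 4T1R2 (adjusted P-value 0.924).

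All 20 receptor-proximal adaptor and ubiquitin genes were tested. In 4T1R1, 8 were higher and 5 lower than in 4T1, and in 4T1R2, 8 were higher and 4 lower (medians 0.12 and 0.02). Tnip1, whose product binds the NF-κB inhibitor A20, was at 1039.8 ± 79.6 normalized counts in untreated 4T1, 2776 ± 144 in 4T1R1 (log2FC 1.42, adjusted P-value 2.27e-25) and 2384 ± 117 in 4T1R2 (1.20, adjusted P-value 1.25e-22). After 17-DMAG, 4 rose and 7 fell in 4T1, 3 rose and 3 fell in 4T1R1, and 2 fell in 4T1R2. Traf1, an adaptor that binds TNF receptor 2 with TRAF2, fell in 4T1 from 1031 ± 4.50 to 411 ± 8.88 (-1.33, adjusted P-value 3.90e-18), in 4T1R1 from 1425 to 1078 (-0.40, adjusted P-value 9.04e-07) and in 4T1R2 from 1301 ± 51.6 to 1144 ± 28.01 (-0.18, adjusted P-value 0.0363). Tnfaip3, which encodes A20, fell in 4T1R1 from 4775 ± 143 to 3531 ± 11.6 (-0.44, adjusted P-value 3.62e-12), and also in 4T1 (-0.67, adjusted P-value 5.35e-16) and 4T1R2 (-0.16, adjusted P-value 0.00305). The background for these list counts is the share of all genes called in each comparison, given above.

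**Figure D5:**
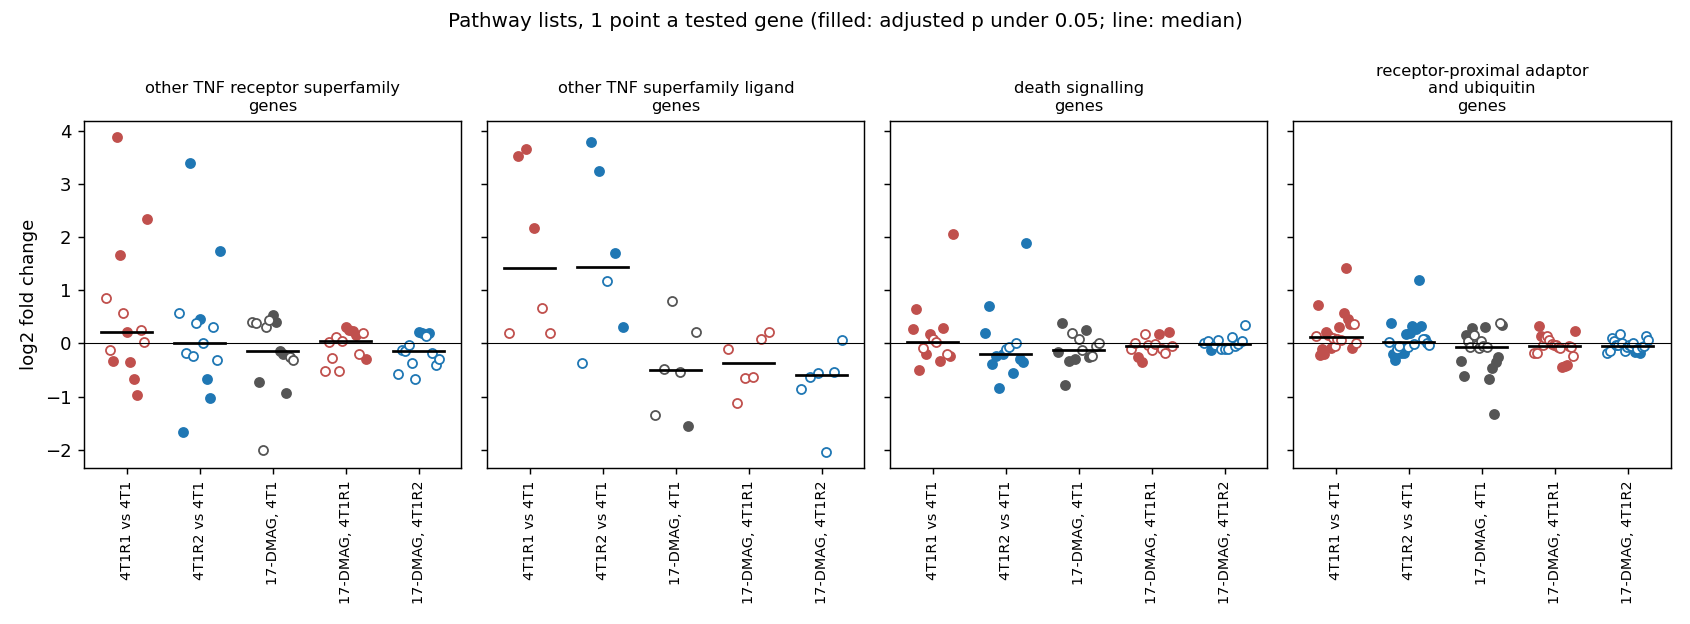
log2 fold change of each tested gene of the 4 pathway lists in 5 comparisons, with filled points for an adjusted P-value under 0.05 and a line for the median of the list. The ligand panel holds only genes that passed the filter on low counts. The adaptor panel shows Traf1 at -1.33 as the lowest point after 17-DMAG in 4T1.

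For each tested member, the gene with the most similar pattern was found as the smallest root mean square difference in log2 change from untreated 4T1 over the other 5 groups, among 10329 or 10330 genes whose mean over libraries reached 100 normalized counts. For Fas it was Csf3 (0.40 on the log2 scale), with 562 normalized counts in untreated and 165 in treated 4T1, 5385 and 2639 in 4T1R1, and 5230.4 and 4895 in 4T1R2. For Tnfrsf1b it was Bcl2l11 (0.12), with 2003 and 1223 in 4T1, 3402 and 2452 in 4T1R1, and 3073 and 2359 in 4T1R2. For Cd40 it was Cldn9 (0.25), with 91.6 and 44.3 in 4T1, 218 and 190.0 in 4T1R1, and 401 and 366 in 4T1R2. For Tnfsf10 it was Cmpk2 (0.53). Before the log2, 1 was added to every normalized count, which shapes the pattern of a gene at 2 counts in each untreated 4T1 library. The nearest genes of the others were Mrps12 for Tnfrsf1a, Fam136a for Tnfrsf10b, Gins2 for Tnfrsf12a, Mtch1 for Ltbr and Slc39a11 for Cflar, all within 0.05 on that scale.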

How the data were processed

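Ribosomal RNA was removed from total RNA of 4T1, 4T1R1 and 4T1R2 cells, and dUTP-stranded libraries were prepared. The authors aligned reads to mm10/GRCm38 with STAR and counted them per gene with featureCounts (Subread 1.6.2, after bcl2fastq 2.20, per the submitters' processing notes), and deposited whole-number counts without normalization. The strand setting and the handling of reads with several matches are not given in the sources used here.

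Groups came from the sample labels. The replicates are described as biological. Replicates 1 and 2 of 17-DMAG-treated 4T1 were averaged, which turned 18 libraries into 17 for the fit. The fit used edgeR 4.0.16 (R 4.3.3) with filterByExpr, TMM scaling, a mean per group without intercept and the quasi-likelihood test. P-values were adjusted by Benjamini-Hochberg over 13507 genes and called under 0.05. SE is the log2FC divided by the root of its F statistic. Dividing a count by its library's TMM-scaled size and multiplying by the mean size gave the normalized count, and groups are given as mean ± SD. For a group at or under 3 counts in every library, ratios use 3 counts per library as its level, without a sampling error. With 23354461 to 55094630 counts per library, members under about 20 counts are imprecise. Positions and exon lengths are from GENCODE vM21 and promoters from RefSeq. Exon length is the merged length of the exons of all annotated transcripts of a gene.

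The members and pathway lists were chosen with earlier results of these data known. Beyond the members, the named genes are, for each list and each comparison with an untreated control, the called gene with the largest absolute log2FC where the higher group averaged 100 normalized counts or more, and the gene nearest in pattern to each member. A few results that this rule names are withheld and not reported here. Ltb, Tnfrsf11a, Tnfrsf22, Tnfrsf23 and the ligand genes of named receptors were named after their values were seen. Alternatives were RLE scaling, total counts alone, no filter, library sizes without Rn45s, at least 10 counts in every library, DESeq2 1.42.0, only the groups compared, 18 separate libraries, a replicate block, and leaving out single libraries. The code was tested on simulated data. Matplotlib 3.10.9 (Python 3.11.15) drew the figures.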

Additional observations from a re-analysis of the deposited data

Results flagged for a closer look

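Each result here was singled out because the response to 17-DMAG differed between a resistant population and 4T1 by a test of the difference itself, in edgeR's quasi-likelihood test with Benjamini-Hochberg adjustment. Differences are the log2 response of the resistant population minus that of 4T1. For Fas, which fell in 4T1 and 4T1R1 and was not called in 4T1R2, the difference was 1.02 in 4T1R1 (adjusted P-value 0.0361) and 1.34 in 4T1R2 (adjusted P-value 0.0049). Without replicate 3 of treated 4T1, which held 6 counts of Fas, these were 0.50 and 0.82, with 1 sample left in that group. Tnfrsf1b, which fell in all 3 populations, gave 0.44 in 4T1R1 and 0.58 in 4T1R2. Tnfrsf12a gave 0.18 in 4T1R1 and 0.23 in 4T1R2, the former lost without replicate 3 of treated 4T1R1 (0.16, adjusted P-value 0.0594). Tnfrsf1a, which rose in 4T1, gave -0.34 in 4T1R1 and -0.29 in 4T1R2. Tnfrsf10b gave 0.17 in 4T1R2 (adjusted P-value 0.0377) and Ltbr -0.20 in 4T1R1 (adjusted P-value 0.0477), and both calls were lost when any of several single libraries was left out.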

How the results depend on the processing

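Under the alternatives, 1832 values of a member's log2FC kept direction and side of the threshold, 58 lost the call, 6 gained it and 19 changed sign, the last for values that were not called. With at least 10 counts in every library, Fas, Cd40 and Tnfsf10 dropped out, which left 6 tested members. Of these 6, 5 were called in untreated 4T1R1 against 4T1 and 3 in the 4T1R1 minus 4T1 difference of response. The lower counts thus come with fewer members tested. Leaving out single libraries gave 2 to 5 members called in that difference and 3 to 5 in the 4T1R2 minus 4T1 difference, lowest in both without replicate 3 of treated 4T1. Fas and Tnfsf10 calls against 4T1, and Cd40 levels, rest on low counts, which limits their precision.

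Changed signs were as follows. Ltbr in untreated 4T1R1 against 4T1 was 0.0172 with total counts alone, 0.0012 with only the groups compared and -0.0541 to 0.0253 leaving out single libraries. Tnfrsf1a in untreated 4T1R2 against 4T1R1 was 0.00023 with RLE scaling, 0.00013 with at least 10 counts and 0.00034 with DESeq2, and -0.0285 to 0.0160 leaving out single libraries. With total counts alone, Tnfrsf10b after 17-DMAG in 4T1 was -0.0148 and Tnfrsf1a after 17-DMAG in 4T1R2 was -0.0395. Leaving out single libraries, Tnfrsf1a after 17-DMAG in 4T1R2 was -0.0355 to 0.0359 and Tnfsf10 was -0.15 to 0.50.

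Scaling by total counts alone moved the median log2FC of all genes to -0.11 after 17-DMAG in 4T1 and to 0.15 in the 4T1R1 minus 4T1 difference. Genes called higher and lower then numbered 1193 and 4322 after 17-DMAG in 4T1 (2490 and 2423 with TMM), 2356 and 1316 in 4T1R1 (1874 and 1938), 367 and 1146 in 4T1R2 (835 and 588), 3536 and 419 in the 4T1R1 difference (1237 and 1227) and 2091 and 631 in the 4T1R2 difference (1299 and 1102). In the 4T1R1 difference Tnfrsf10b (0.23, adjusted P-value 0.00478) and Cflar (0.19, adjusted P-value 0.0113) were then called, and Ltbr was not (-0.05, adjusted P-value 0.658). The causes were not tested.

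Same-numbered libraries shared no clear deviation from their group means. Over 45 pairs of them the correlation of deviations ran from -0.05 to 0.05, and 0 pairs were over 0.1. The correlations include the sampling noise of all genes tested and do not settle whether the samples were paired. With the replicate block and 18 separate libraries, the Fas difference for 4T1R1 was 0.80 (adjusted P-value 0.0587), Ltbr after 17-DMAG in 4T1 was 0.12 (adjusted P-value 0.0338), and genes called after 17-DMAG in 4T1 numbered 5542, against 5591 without the block.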
